A study of Rattus norvegicus with 30 samples.

Results

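The H4K16Ac libraries of the cortex of rat embryos were examined for differences between a maternal high-fat diet (HFD) and a control diet. They are 6 of the 30 libraries of the study, 3 for each diet, and were chosen by the antibody named in their labels. Chromatin immunoprecipitation with sequencing (ChIP-seq) was used, in which an antibody pulls down the DNA that lies on a histone. The 3 libraries of a diet share 1 deposited list of broad peaks, here called domains. The control list held 173786 domains and the HFD list 174862. Together they make 348648 of the 1417597 intervals in the 10 lists of the 5 antibodies.

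Both groups were Wistar rat embryos of stage E14.5. Control dams were given normal chow and HFD dams a commercial chow with most of its calories as fat, from weaning on and through gestation. Mating took place after the HFD dams had gained more weight than the control dams. A sample was frontal cortex pooled over the embryos of 1 litter, so that a library stands for a litter and not for an embryo. The sex of the embryos was not given in the sources used here. No library was set apart from the other 2 of its diet in the lists. A difference between the diets could therefore not be set against the spread between litters, and no test between the diets was made. A cortex sample also holds several cell types, and fewer cells that carry the mark could not be told apart from less of it in every cell. The tissue could not be checked against marker genes, because peaks were not assigned to genes here.

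H4K16Ac is the acetylation of lysine 16 in the tail of histone H4. It is written mainly by the acetyltransferase KAT8, also named MOF, and removed by deacetylases such as SIRT1. The acetyl group takes away a positive charge with which the H4 tail touches the neighbouring nucleosome, and chromatin that carries it folds less tightly. The mark lies around the start sites and along the bodies of active genes, often in broad stretches. It was therefore compared here with H3K4me3, the trimethylation of histone H3 lysine 4, which marks the promoters of active genes.

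Each domain has a position in the rat genome build rn6, a fold enrichment over background, a −log10 p and a −log10 q. In a broad list these 3 values are averages over the whole domain. The typical values of both lists were close. The median fold enrichment was 3.14 in control and 3.11 in HFD. The median −log10 q was 2.70 in control and 2.77 in HFD. The HFD list had more weak domains, as 84.7% of the control domains and 80.5% of the HFD domains had a q of at most 0.05. It also had more strong domains, with 41854 of −log10 q of at least 5 against 37297 in control. The background pileup, the number of fragments per base that the peak caller expects by chance, was 1.61 in control and 1.75 in HFD. The HFD value was 108.6% of the control value. The part that this difference in depth had in the results was not tested.

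In the whole lists, H4K16Ac domains were as many in HFD as in control, but fewer of them were wide. The HFD over control ratio was 1.01 for the number of domains and 0.973 for the length that they cover, with 196.1 Mb in the control list and 190.8 Mb in the HFD list. This is 6.86% and 6.67% of the 2860 Mb that peaks of all lists span. Control domains had a median width of 794 bp and a mean of 1129 bp, HFD domains a median of 764 bp and a mean of 1091 bp. The narrow end of the lists was alike, with 25% of the domains up to 439 bp wide in control and up to 438 bp in HFD. The wide end was not, as the widest 5% began at 3066 bp in control and at 2942 bp in HFD. The ratios of number, covered length and median width moved with the strength of the domains kept. At −log10 q of at least 5 they were 1.12, 1.15 and 0.998, and at 20 that of median width was 1.08.

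The whole HFD list had fewer domains of 2 to 10 kb than the whole control list. Width classes were not counted at a threshold of −log10 q. Domains under 500 bp numbered 56017 in control and 57336 in HFD, a ratio of 1.02. Those of 500 bp to 1 kb numbered 46576 and 48410, a ratio of 1.04, and those of 1 to 2 kb 46144 and 46019, a ratio of 0.997. Between 2 and 5 kb there were 23778 and 22031, a ratio of 0.927, and between 5 and 10 kb 1259 and 1054, a ratio of 0.837. Each list had 12 domains of 10 kb or more. Domains of 2 to 5 kb covered 67.6 Mb in the control list and 62.2 Mb in the HFD list. This difference alone was larger than that of the whole lists, as domains under 1 kb covered more bases in HFD.

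**Figure D1:**
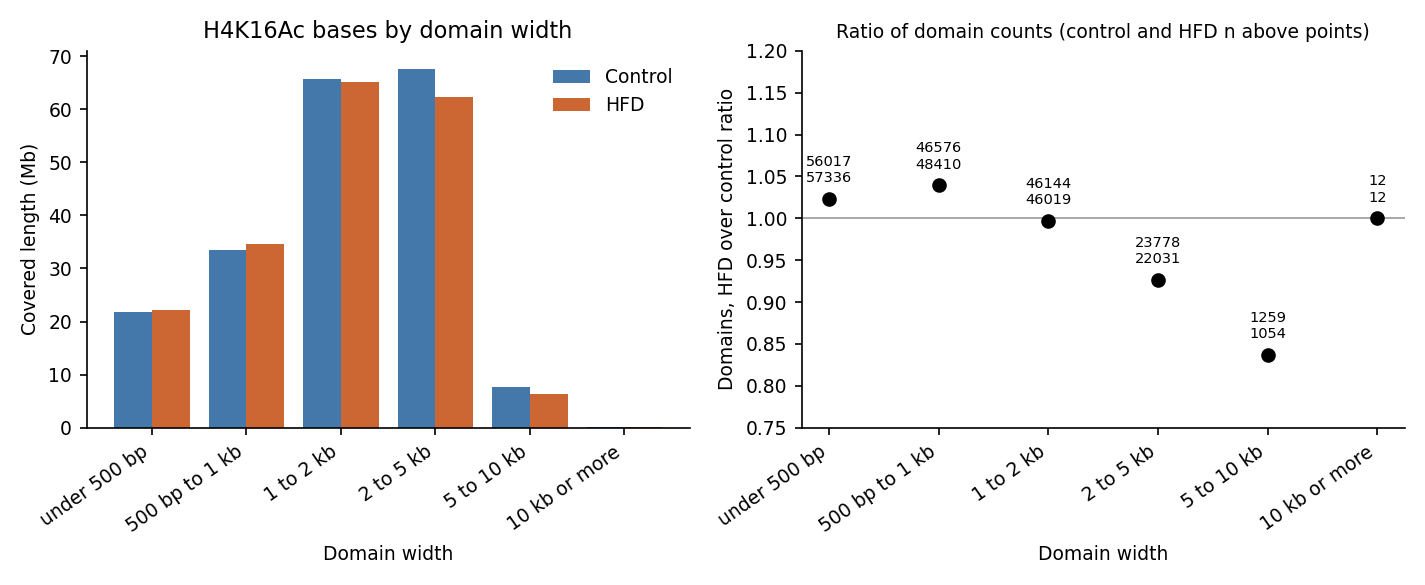
Left, bases covered by H4K16Ac domains of each width class (Mb) in the control (blue) and HFD (orange) lists, 1 list of 3 pooled libraries per diet. Right, the ratio of the number of domains, on an axis that starts at 0.75, with the control count written over the HFD count at each point. The ratio lies between 0.997 and 1.04 for the 3 classes up to 2 kb and is 0.927 and 0.837 in the next 2 classes.

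The widest domains were placed by rule, 3 for each diet. The widest control domain lay at chr10:45371743-45387510 and had 15768 bp, of which 3 HFD domains covered 11574 bp. The next control domains were chr20:7149024-7161980, with 12957 bp and 2 HFD domains on 10998 bp of it, and chr4:126635162-126646947, with 11786 bp and 4 HFD domains on 7567 bp of it. These regions thus carried the mark in both diets, but in HFD as several pieces. The widest HFD domain lay at chr20:6669788-6684005 and had 14218 bp, of which 3 control domains covered 8312 bp. The next HFD domains were chr3:176731131-176744591, with 13461 bp and 3 control domains on 10557 bp, and chr3:6286265-6298568, with 12304 bp and 2 control domains on 5338 bp. The widest domains of either diet were thus broken in the other. All 12 control domains of 10 kb or more lay over at least 2 HFD domains, and all 12 such HFD domains over at least 2 control domains. Each of the 6 regions named here overlapped an H3K4me3 interval. Of all domains, 49.5% in control and 48.3% in HFD overlapped one of their own diet, and a wide domain has more room for one.

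Breaks in HFD were more frequent than joins. Domains that overlap by at least 1 bp were put in groups, and a group with 1 HFD domain over 2 or more control domains was counted as a join in HFD, one with 1 control domain over 2 or more HFD domains as a split in HFD. There were 2242 joins and 3443 splits, a ratio of 0.651, and 246 groups with 2 or more domains of both diets. Nearly all were simple, since 97.4% of the joins and 97.7% of the splits involved 2 pieces. Splits and joins were also of similar size. The single domain had a median of 3456 bp in joins and 3386 bp in splits, and the gap between the pieces a median of 1422 bp and 1444 bp. As no domains within a list were closer than 1175 bp, a break means that at least this much of the domain was not called in the other diet.

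Wider domains were broken more often in both diets. Of the control domains of 1 to 2 kb, 0.338% lay over 2 or more HFD domains, of those of 2 to 5 kb 12.3%, and of those of 5 to 10 kb 48.2%. For HFD domains over 2 or more control domains these shares were 0.291%, 8.72% and 41.0%. A broken domain spans a gap of at least 1175 bp, so that this rise follows in part from the width itself. The control shares were higher in all 3 classes. Fold enrichment, an average over the whole domain, was low in pieces and single domains. Its median was 2.66 for the split control domains and 2.75 for their HFD pieces. Both were below the 3.34 of domains that overlap only each other. Domains of unequal width are averaged over unequal stretches, which limits this comparison.

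The join with the most control domains lay at chr13:35428855-35438950, where 4 control domains covered 5229 bp of an HFD domain of 10096 bp. Of the 57 joins with 3 control domains, chr19:26561019-26565366 and chr3:11331540-11342655 are given as examples. The first was a strong domain of 4348 bp with a fold enrichment of 4.27 and a −log10 q of 22.7, and the second had 11116 bp. The region on chromosome 19 also had 3 H3K4me3 intervals in either diet. The split with the most HFD domains lay at chr1:100894619-100906195, where 5 HFD domains covered 4508 bp of a control domain of 11577 bp. It was 1 of 4 splits with 4 or more HFD domains. The others named are the region on chromosome 4 given above and chr5:136512762-136519812, where 4 HFD domains covered 1815 bp of 7051 bp. H3K4me3 was present in all 3 of the named splits in both diets, with 2, 1 and 1 intervals in control and 2, 3 and 1 in HFD. These are wide regions, with more room for such intervals.

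Most domains had a single partner, and the median pair hardly differed in width, while single pairs often did. A domain of each diet overlapped only the other in 132030 pairs, which hold 76.0% of the control and 75.5% of the HFD domains. Their control domains had a median width of 888 bp and their HFD domains one of 851 bp, and the median of the ratio within pairs was 0.990, with 25% of the pairs below 0.819 and 25% above 1.16, and 5% below 0.337 and 5% above 2.59. The HFD domain was the wider one in 47.6% of the pairs and the narrower one in 52.2%. It was wider by 1.5 times or more in 17654 pairs (13.4%) and narrower by as much in 20844 (15.8%). The edges lay close together, with a median distance of 71 bp at either end. Fold enrichment was nearly the same, with a median HFD over control ratio of 1.01.

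Pairs of 500 bp to 2 kb differed most. The median ratio of widths was 1.001 for pairs with a mean width under 500 bp, 0.984 for 500 bp to 1 kb, 0.987 for 1 to 2 kb, 0.993 for 2 to 5 kb and 1.001 for 5 to 10 kb. The ratio of fold enrichment was higher for wider pairs, from 0.980 in the narrowest to 1.04 in the widest class. Among pairs of 2 to 5 kb the HFD domain was wider by 1.5 times or more in 10.6% and narrower by as much in 13.0%.

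The pairs that differed most in width are extremes by choice and are given as examples. The HFD domain was wider by most at chr1:101894275-101901975, from 2536 bp in control to 7701 bp in HFD. It was followed by chr3:59943100-59948631, from 401 bp to 5532 bp, and chr13:87285000-87290566, from 619 bp to 5516 bp. In these 3 pairs fold enrichment was lower in the wide HFD domain than in the narrow control domain, for example 2.24 against 2.61 in the first. The HFD domain was narrower by most at chr9:15678785-15686298, from 7514 bp to 1132 bp. It was followed by chr3:9648313-9655654, from 7342 bp to 2084 bp, and chr1:185034894-185040255, from 5362 bp to 317 bp. In these the narrow HFD domain had the higher fold enrichment, for example 3.84 against 2.43 in the first. Fold enrichment is an average over the whole domain, so that domains of unequal width are not compared on the same bases. H3K4me3 intervals did not follow the width in all of these pairs. The 3 pairs that were wider in HFD had 1, 1 and 1 interval in control and 1, 0 and 1 in HFD, and the 3 that were narrower had 2, 1 and 0 in control and 1, 0 and 3 in HFD. These pairs differed in how far the domain reached, and a part of it was in both lists.

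Most domains were found in both diets, and those found in one were weak. Of the control domains 80.9% (95% Wilson interval 80.7% to 81.0%, counting error only) were overlapped by an HFD domain, and of the HFD domains 81.1% (80.9% to 81.2%) by a control domain. This left 33257 control-only and 33108 HFD-only domains. They were narrow, with a median width of 418 bp and 443 bp, and of low enrichment, with a median of 2.71-fold and 2.49-fold.

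The shared part was larger among stronger domains. With a −log10 q under 1, 44.5% of the control and 39.7% of the HFD domains were shared. From 1 to 2 the shares were 67.9% and 70.9%, from 2 to 5 86.2% and 89.4%, and from 5 to 10 98.0% and 97.6%. Above 10 almost every domain had a counterpart of some strength. From 10 to 20, 7 of 10195 control and 34 of 11517 HFD domains had none, and from 20 upwards 3 of 2838 and 5 of 3239. These shares take a counterpart of any strength. Where both lists were held to a −log10 q of at least 5, 76.7% of the control domains were overlapped by an HFD domain, and 51.1% of the bases covered in either diet were in both.

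**Figure D2:**
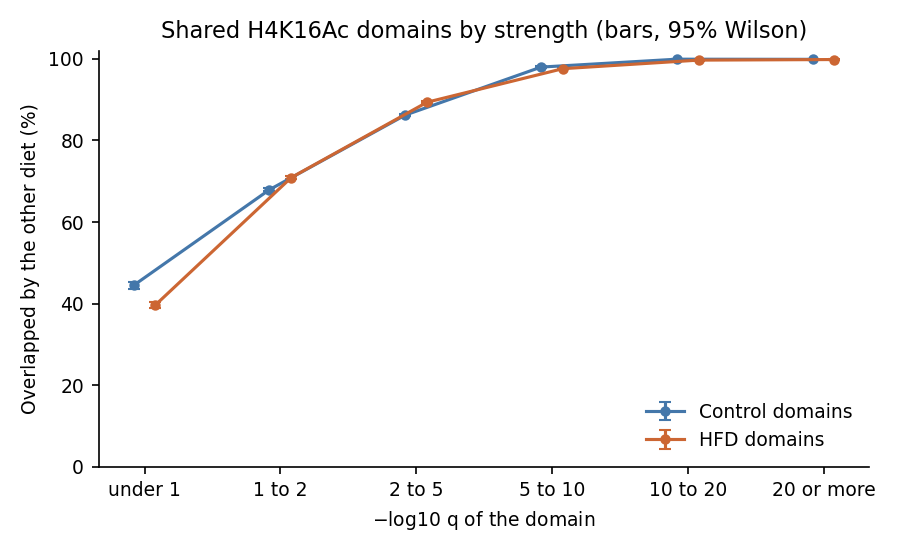
Share of H4K16Ac domains (%) of each diet overlapped by at least 1 bp by a domain of the other diet, in classes of −log10 q of the domain itself. Points are control (blue) and HFD (orange) domains and bars are 95% Wilson intervals, which cover counting error only. The share runs from 44.5% and 39.7% in the weakest class to 99.9% and 99.8% in the strongest.

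The few strong domains of 1 diet were looked at after these counts were seen. With a −log10 q of at least 10, 10 domains were control-only and 39 HFD-only. They were short, as 8 of the 10 and 30 of the 39 had fewer than 500 bp, and 9 of the 39 lay on chromosome 2, which holds 7.36% of all HFD domains. The strongest HFD-only domain was chr2:236612947-236613271, with 325 bp, 15.1-fold enrichment and a −log10 q of 176, and no interval of another antibody overlapped it in either diet. The next was chr2:55921179-55921498, with 12.9-fold enrichment, which overlapped an H3K4me3 and a pan H4 interval of both diets. The strongest control-only domain was chr3:174539864-174541124, with 1261 bp and 9.74-fold enrichment, which overlapped an H3K4me3 and a pan H4 interval in control but not in HFD. Of the 39 HFD-only domains, 36 overlapped a pan H4 interval of HFD and 25 one of control. Of the 10 control-only domains, 4 overlapped one of HFD and 8 one of control. Among HFD domains of any strength, these shares were 40.6% and 30.4% for the HFD-only ones. For those overlapped by a control domain they were 88.1% and 82.6%.

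The widest diet-specific domains were weaker than these and are named by rule. The control-only domains were chr2:8828-14147 (5320 bp), chr5:146171677-146176022 (4346 bp) and chr1:279262823-279267099 (4277 bp), with fold enrichments of 2.17, 2.52 and 2.65. The HFD-only domains were chr10:6302126-6307731 (5606 bp), chr12:35741966-35747443 (5478 bp) and chr11:16497993-16503432 (5440 bp), with 2.23-fold, 2.36-fold and 2.34-fold. Of these 6, 2 had no H3K4me3 interval of either diet, the third control-only domain, which was 5695 bp away from the nearest, and the first HFD-only domain, which was 14544 bp away. Wide domains in 1 diet alone were rare. Those of 5 kb or more numbered 1 of 1271 in control and 5 of 1066 in HFD, and those of 2 kb or more 631 of 25049 (2.52%) and 979 of 23097 (4.24%).

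Pan H4, total H3 and H3K4me3 shifted in the same direction as H4K16Ac at the diet-specific domains. Pan H4, an antibody against H4 whatever its modification, had an interval at 38.9% of the control-only domains in control and at 30.0% in HFD. At the HFD-only domains it was the reverse, with 30.4% in control and 40.6% in HFD. Total H3 went from 30.3% to 23.6% at the control-only domains and from 21.7% to 31.1% at the HFD-only domains. H3K4me3 went from 14.48% to 9.39% and from 12.3% to 16.2%. Where H4K16Ac was called in a single diet, intervals of H4, H3 and H3K4me3 were thus also more frequent in that diet.

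H3K27me3, the mark of genes silenced by Polycomb, was rare at diet-specific domains and did not follow them. It went from 3.45% to 2.89% at the control-only domains and from 5.13% to 4.13% at the HFD-only domains, lower in HFD at both. This held within 2500 bp of H3K4me3 (from 5.84% to 4.06% and from 8.66% to 6.18%), while farther away, where most diet-specific domains lay, it was 1.77% and 2.06% at the control-only and 2.48% and 2.59% at the HFD-only domains. At the shared control domains it was present at 35.8% in control and 25.5% in HFD, where the background of the HFD list was 39.9% of that of control. Pan H4 was at 83.2% of the shared domains in control and 88.4% in HFD, total H3 at 80.7% and 82.0%, and H3K4me3 at 57.8% and 56.2%.

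By bases, the lists had 134.5 Mb in common, which is 53.3% of the 252.4 Mb covered in either diet. The bases found in control alone were 61.6 Mb and those in HFD alone 56.3 Mb. Most of them were at the outer edges of domains that were in both lists, with 34.4 Mb in control and 29.7 Mb in HFD. Diet-specific domains held 21.2 Mb and 22.6 Mb. Bases between 2 domains of the other diet, spanned by a single domain, held 6.03 Mb and 4.03 Mb. The control list was thus ahead at edges and in spanned gaps, and the HFD list in domains without a counterpart.

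**Figure D3:**
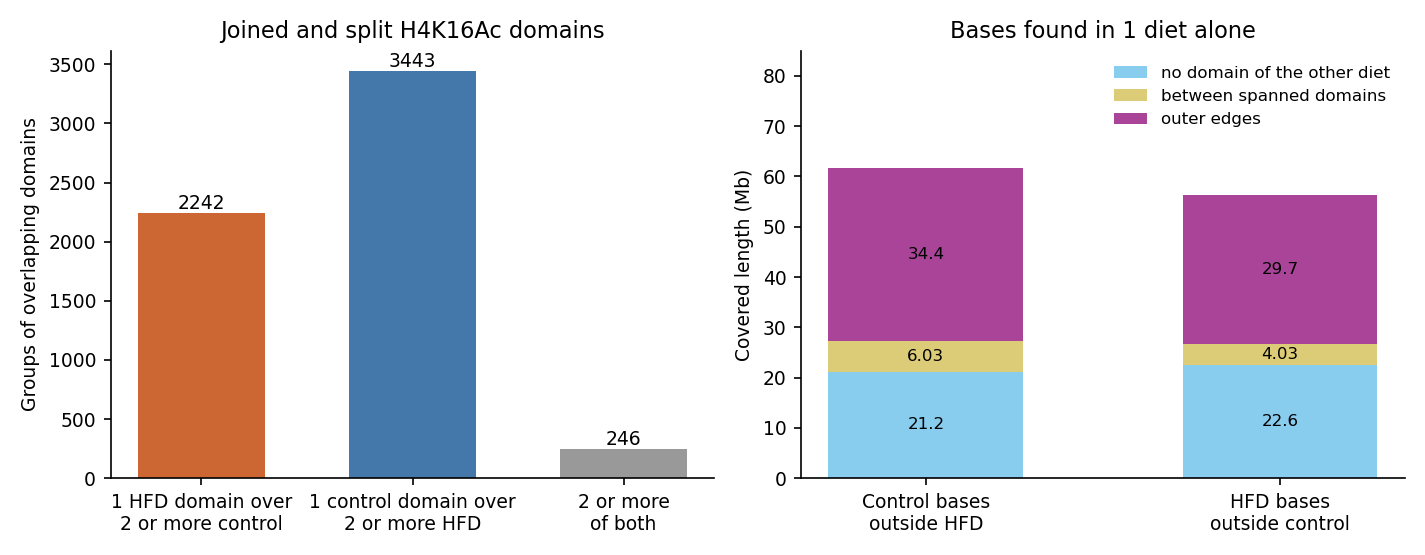
Left, number of groups of overlapping H4K16Ac domains in which a domain of one diet lay over 2 or more of the other, with 2242 joins in HFD, 3443 splits in HFD and 246 groups with 2 or more of both. Right, bases (Mb) found in the control list alone and in the HFD list alone, divided into domains with no domain of the other diet (light blue), stretches between domains of the other diet that 1 domain spans (yellow) and outer edges of overlapping domains (purple). Control has more at edges and in spanned stretches.

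To see where along the genome the diets differed, distances were taken from the H3K4me3 intervals of either diet, so that both H4K16Ac lists were measured from the same places. Domains within 2500 bp of H3K4me3 numbered 126434 in control and 127567 in HFD, and those farther away 47352 and 47295. Within this distance H4K16Ac covered 153.2 Mb and 149.7 Mb, a ratio of 0.977, and beyond it 42.9 Mb and 41.0 Mb, a ratio of 0.957. Near and far domains were different in kind. The near ones had a median width of 942 bp in control and 902 bp in HFD, and the far ones 462 bp and 470 bp. Near domains were shared in 89.1% of control and 88.9% of HFD cases, far domains in 58.8% and 60.0%. Splits outnumbered joins at both, with 2069 joins and 3155 splits near H3K4me3 (a ratio of 0.656) and 173 joins and 288 splits far from it (a ratio of 0.601).

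The ratio was not even along the distance. On the bases of the H3K4me3 intervals themselves, H4K16Ac covered 75.4% in control and 76.0% in HFD, a ratio of 1.01. The ratio was lower with distance, with 0.975 at 1 to 500 bp, 0.942 at 501 to 1000 bp, 0.916 at 1001 to 2500 bp and 0.883 at 2501 to 5000 bp. At 5001 to 10000 bp it was 0.896. Beyond that it was above 1, with 1.12 at 10001 to 50000 bp, from 10.1 Mb to 11.3 Mb, and 1.59 over 50000 bp, from 0.904 Mb to 1.44 Mb. In the whole lists H4K16Ac in HFD was thus equal on H3K4me3, less on its flanks, and more in stretches with no H3K4me3 nearby. The mark is sparse in such stretches. The bands were computed for the whole H4K16Ac lists alone. In the band over 50000 bp it covered 0.368% of the bases in control and 0.584% in HFD.

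The ratios within 2500 bp of H3K4me3 (near) and beyond it (far) moved with the strength of the domains kept. For −log10 q of at least 1, 2, 3 and 5 the near ratio was 0.963, 1.02, 1.09 and 1.14, and the far ratio 0.833, 0.875, 0.967 and 1.24. The number of domains went from a ratio of 0.955 at 1 to 1.12 at 5 and 1.31 at 50, where 437 control and 571 HFD domains were left. Over all distances the covered length ratio was 0.973 for all domains, 0.938 at 1, 0.9985 at 2, 1.08 at 3 and 1.15 at 5. Leaving out the weakest domains thus lowered it at first. The HFD list covered less at thresholds up to 2, and more from 3 upwards. Far from H3K4me3 it still covered less at 3. The width also depended on the threshold. The HFD over control ratio of the median width was 0.962 for all domains and 0.975 at 1, but 1.01 at 2 (795 bp and 799 bp), 1.02 at 3, 0.998 at 5, 1.02 at 10 and 1.08 at 20 (824 bp and 887 bp). With domains of −log10 q of at least 5 kept, joins numbered 14 and splits 25.

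**Figure D4:**
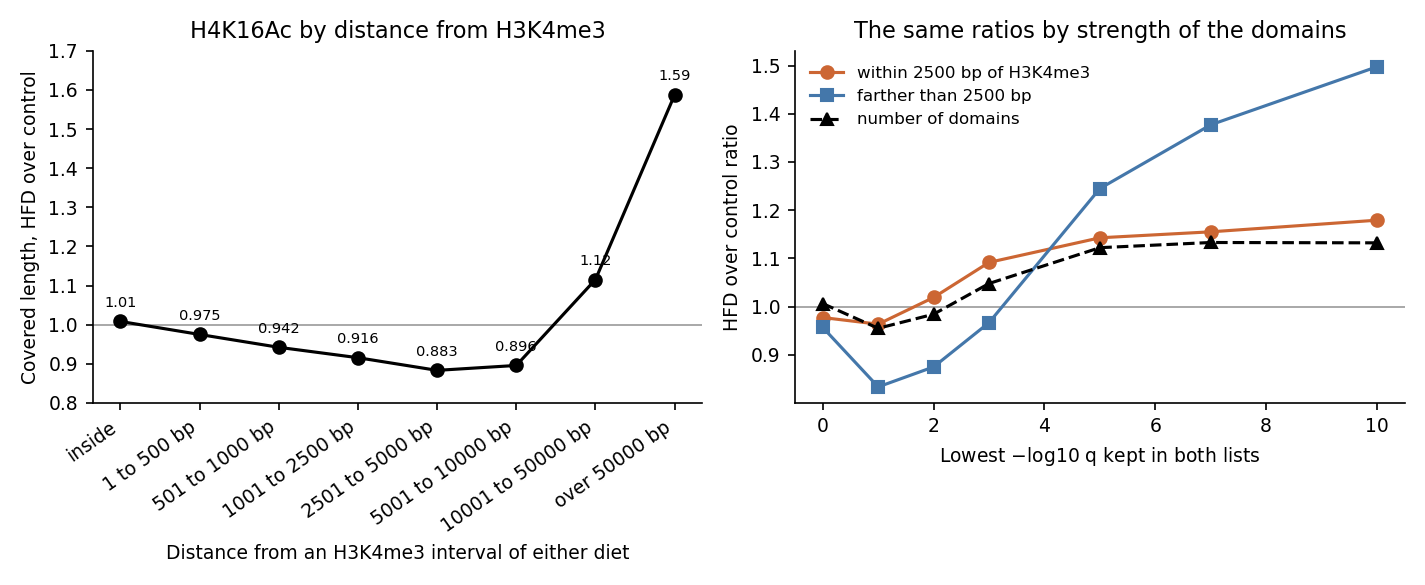
Left, HFD over control ratio of the bases covered by all H4K16Ac domains, in bands of distance (bp) from an H3K4me3 interval of either diet. The ratio is 1.01 inside the intervals, 0.883 at 2501 to 5000 bp and 1.59 over 50000 bp. Right, the ratio of covered length within 2500 bp of H3K4me3 (orange) and farther away (blue), and of the number of domains (black), against the lowest −log10 q kept in both lists. The 3 ratios lie at or below 1.01 for all domains and at 1.12 to 1.24 for −log10 q of at least 5.

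Against the H3K4me3 intervals of its own diet, H4K16Ac was on about as many in HFD, out of a shorter list. It overlapped 93646 of the 113056 control intervals in control (82.8%) and 93001 of the 107919 HFD intervals in HFD (86.2%). Fewer H4K16Ac domains held an H3K4me3 interval in HFD, with 86003 (49.5%) in control and 84398 (48.3%) in HFD. Domains with 2 or more H3K4me3 intervals numbered 7088 in control and 7881 in HFD, and those with 3 or more 509 and 653. Domains with none had a median of 516 bp in control and 513 bp in HFD, those with 1 interval 974 bp and 951 bp, and those with 2 or more 2564 bp and 2532 bp. A wider domain has more room for such intervals, so that this order of widths follows in part from the count itself, and the medians of the diets lay close together in each class. The background of the HFD H3K4me3 list was 87.7% of that of control.

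The same measures were taken in H3K27me3, the other antibody with broad lists, and in pan H4. The number of joins over splits was 0.148 for H3K27me3, from 31 joins and 210 splits, and 1.17 for pan H4, from 1753 joins and 1493 splits. The covered length ratio was 0.651 for H3K27me3 and 1.03 for pan H4, and the ratio of median widths 0.683 and 1.02. H4K16Ac, with 0.651, 0.973 and 0.962, lay between them in all 3 measures. The HFD background was 39.9% of that of control for H3K27me3, 108.6% for H4K16Ac and 109.6% for pan H4. The part that these differences in depth had in the 3 measures was not tested. The bases in both diets were 24.0% for H3K27me3 and 49.1% for pan H4. The pan H4 lists hold narrow peaks, so that their joins and splits are not measured quite as those of the broad lists are. Whether H4K16Ac and pan H4 differ beyond the spread between litters could not be tested.

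The chromosomes were not alike. Covered length was lower in HFD on 19 of the 20 autosomes, from a ratio of 0.906 on chromosome 12 to 0.984 on chromosome 18, and higher on chromosome 2, with 1.08. Chromosome 12 was also the one most densely covered by the mark, with 17.0% of its length in control and 15.4% in HFD. Chromosome X, which carries the least H4K16Ac of the larger chromosomes (2.25% and 2.90%), had 3.60 Mb of the mark in control against 4.63 Mb in HFD, a ratio of 1.29. Chromosome Y had 0.0676 Mb in 73 control domains and 0.121 Mb in 105 HFD domains. Joins outnumbered splits on chromosome X, with 30 against 25, and on no autosome.

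In windows of 1 Mb the ratio also varied with how densely the mark covered the region. Windows with less than 10 kb in both diets were left out, and 2755 of 2771 were kept. H4K16Ac was higher in HFD in 1528 windows and lower in 1227, and the levels of the diets followed each other closely (Spearman's rho 0.973 across windows, which share the libraries and are not independent). HFD was higher by 1.5 times or more in 423 windows (15.4%) and lower by as much in 7 (0.254%). Of the windows kept, 84 reached 10 kb in HFD alone and 0 in control alone, and 67 of these 84 are among the 423. Over the 2671 windows with 10 kb in both diets, 356 were higher and 7 lower. HFD was higher mostly where the mark was sparse. Windows were divided into 5 classes of 551 by the mean of both diets. From the least to the most covered class the ratio was 1.44, 1.28, 1.07, 0.924 and 0.893, and HFD was higher in 513, 490, 346, 139 and 40 of the windows. With only the 2671 windows that had 10 kb in both diets, the ratios were 1.39, 1.26, 1.06, 0.922 and 0.893, and with all 2771 windows ranked by H3K4me3 and no filter 1.43, 1.26, 1.06, 0.919 and 0.899. In the least covered class the mark went from 7.50 Mb to 10.8 Mb and in the most covered one from 104.7 Mb to 93.5 Mb.

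Total H3 had nearly the same course over these windows, with ratios of 1.39, 1.26, 1.09, 0.972 and 0.964. Pan H4 had 1.26, 1.15, 1.0005, 0.920 and 1.04, and H3K4me3 1.12, 1.06, 0.944, 0.882 and 0.883. The course was thus not particular to H4K16Ac. On chromosome X too, pan H4, total H3 and H3K4me3 were higher in HFD, with ratios of 1.31, 1.35 and 1.16. With a −log10 q of at least 5 the H4K16Ac ratio was above 1 in all 5 classes, with 1.10, 1.11, 1.09, 1.13 and 1.21, and on all 22 chromosomes, from 1.04 on chromosome Y to 1.27 on chromosome 12. Pan H4 at this threshold had higher ratios, with 1.40, 1.32, 1.30, 1.39 and 1.74 in the classes and from 1.22 on chromosome Y to 1.90 on chromosome 12. Total H3 had 1.09, 1.06, 1.005, 0.993 and 1.06 in the classes. H3K4me3 kept a falling course, with 1.05, 1.01, 0.972, 0.937 and 0.896, and was below 1 on 21 of the 22 chromosomes. For H4K16Ac, chromosome 12 thus had the lowest ratio of all for the whole list and the highest for its strong domains.

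**Figure D5:**
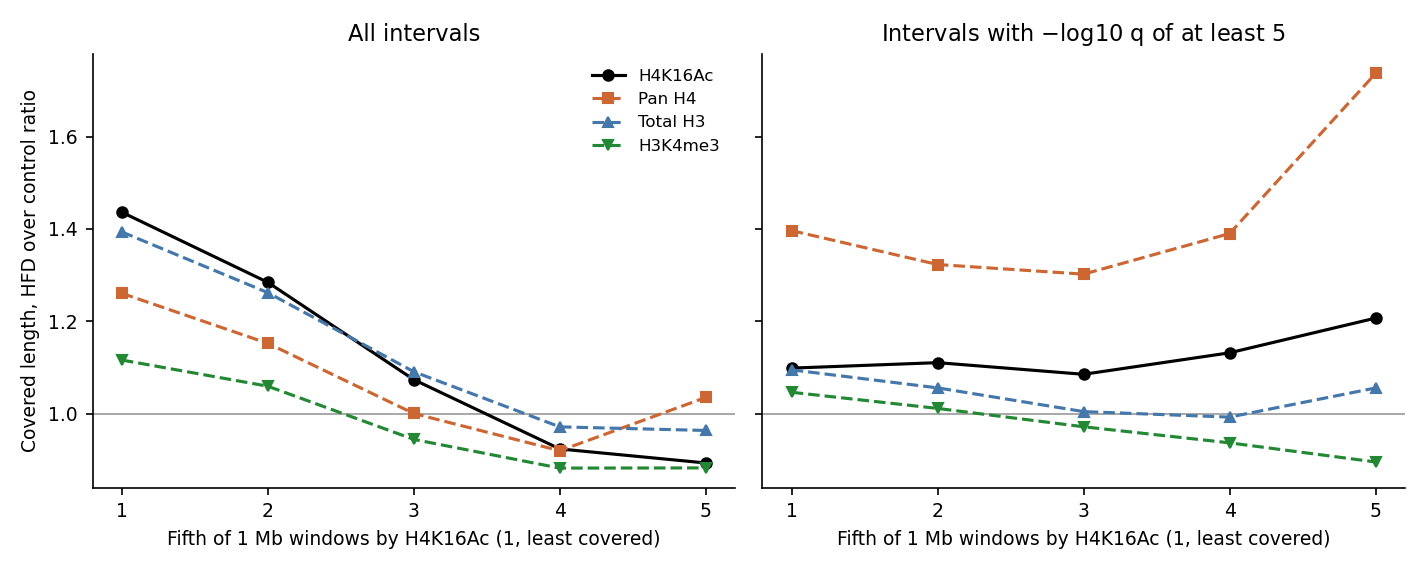
HFD over control ratio of the bases covered in 1 Mb windows, in 5 classes of 551 windows ranked by their H4K16Ac in the mean of both diets (1, least covered), for H4K16Ac (black), pan H4 (orange), total H3 (blue) and H3K4me3 (green). Left, all intervals, where H4K16Ac runs from 1.44 down to 0.893. Right, intervals with a −log10 q of at least 5, where H4K16Ac lies between 1.09 and 1.21 in every class.

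The windows at the ends of this range show its size. Among windows with 10 kb in both diets the highest ratio was in chr13:18000001-19000000. H4K16Ac there went from 10.7 kb in 14 control domains to 30.4 kb in 26 HFD domains. Total H3 in this window went from 6.87 kb to 13.5 kb, while H3K4me3 went from 9.36 kb to 8.98 kb. The lowest ratio was in chr4:129000001-130000000, from 50.5 kb in 57 domains to 30.5 kb in 40 domains, with H3K4me3 going from 20.9 kb to 13.2 kb. In bases HFD was lower by most in chr8:66000001-67000000, with 193.8 kb in control and 128.5 kb in HFD. The window with the most H4K16Ac in both diets, chr7:12000001-13000000, had 416.6 kb in control and 450.9 kb in HFD, against the direction of its class.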

How the data were processed

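Per the labels and the study's methods, the authors used Bowtie2, MACS2 and the genome build rn6, with the options recommended for MACS2, which were not listed, and with versions not given in the sources used here. They deposited 1 list for the 3 libraries of a diet, with positions, a score (not used), the fold enrichment as a ratio to background, and −log10 p and q. In the narrow lists (H3K4me3, pan H4, total H3) an interval repeated for several summits was counted once. The rest was computed from positions with Python 3.11.15, numpy 2.4.6, pandas 2.3.3 and scipy 1.17.1, and the interval functions were tested on simulated data. The background pileup came from the most frequent pair of fold enrichment and p. Windows of 1 Mb needed at least 10 kb of H4K16Ac in either diet.

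Named by rule, on chromosomes 1 to 20, X and Y, were the 3 widest domains of each diet and of each diet alone, the 3 joins and splits with the most pieces, and the 3 pairs in which HFD was wider and narrower by most. Joins and splits can tie in their number of pieces, and those named from a tie are examples. Strong diet-specific domains, chromosomes and windows were chosen after their values were seen, and all members and lists with earlier results of these data known. Genes and sequences were not used, as the reference tables are of build GRCr8. The labels of control total H3 replicate 3 name both diets, and its title put it in control.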

Additional observations from a re-analysis of the deposited data

How the results depend on the processing

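As each diet has 1 list, the ratios have no test, and how far they would move with other litters is unknown. A limit on depth also remains, since the HFD background was higher. The ratio of pair width and the number of joins over splits stayed below 1 under every alternative run for them, joins over splits between 0.553 and 0.795. At −log10 q of at least 5 the pair ratio was 0.998, and only 14 joins and 25 splits were left. The 7 thresholds given next for median width were not run for pair width or for joins over splits. The ratio of median width stayed below 1 with each change of filter, chromosomes or length of the lists, but of 7 thresholds of −log10 q chosen after seeing the data, 5 gave values above 1 (1.01 at 2, 1.02 at 3 and 10, 1.08 at 20 and 1.04 at 50) and 2 below 1 (0.975 at 1 and 0.999 at 7). The bases in both diets stayed between 51.1% and 54.6%. Joining domains up to 500 or 1000 bp apart changed nothing, since none were that close.

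Other ratios crossed 1, and the cause was not tested. At −log10 q of at least 5, covered length was 1.146, near H3K4me3 1.14 and far from it 1.24. The near ratio was 1.002 with H3K4me3 of the HFD list, and the far ratio 1.01 with a limit of 5000 bp. The number of domains was 0.956 at a q of at most 0.05 and 0.998 for domains of at least 500 bp. The share of control domains overlapped was 76.7% at −log10 q of at least 5, 79.4% at a q of at most 0.05, 77.0% for domains of at least 500 bp and 69.8% where at least 50% of the domain had to be covered. Of alternatives chosen after seeing the data, −log10 q of at least 5 gave 1.21 for the most covered class of windows and left 0 of 22 chromosomes below 1, windows with at least 10 kb of H3K4me3 gave 298 higher and 7 lower by 1.5 times of 2514, and other filters or ranking by H3K4me3 gave 1.38 to 1.43 for the least and 0.893 to 0.900 for the most covered class.

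No paired analysis was possible because the 3 libraries of a diet share 1 list, and the fits without each replicate were not run for the same reason.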
